A study of Tursiops truncatus with 31 samples.

Results

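Peripheral blood drawn late in one summer was compared with blood drawn in July of the same year from the same bottlenose dolphins (Tursiops truncatus), which asks how far the blood transcriptome moved within a season that the study treated as a single group. The 7 libraries concerned, of 31 in the series, were chosen by sampling month and not by any measured value. Late summer comprised 4 libraries: Hua in August, Kai in September, Pele in August and Pele in September. Early summer comprised 3 libraries, the July draws of Hua, Kai and Pele. Hua was a male aged 5 years, Kai a male aged 17 years and Pele a female aged 28 years. The late draws followed the July draw of the same animal by 46 days in Hua, 67 days in Kai, and 40 and 56 days in Pele. The remaining 24 libraries were other months of these animals (15 libraries) or came from Keo, the other female (9 libraries), which has no July library here. All animals were healthy and under human care in Hawaii, and blood came from the flukes on mornings after an overnight fast. RNA of both groups was treated with RNase H and oligonucleotides against HBA, HBB and HBM before library construction. The paper reports that this removed most HBA, that HBB stayed among the most abundant transcripts, and that the fall of HBM was small and not significant. The design limits what can be read from it: month differs among the late libraries, the 2 late libraries of Pele share 1 July library, and with 3 animals the time between the draws cannot be told apart from any other difference between those sampling days.

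Circulating blood RNA comes from red cells and reticulocytes, which in mammals keep large amounts of globin and ribosomal transcripts after losing the nucleus, and from leukocytes and platelets, whose proportions shift over days to weeks. Neutrophils and monocytes carry inflammatory and interferon-inducible programmes, lymphocytes carry antigen receptor genes, and every nucleated cell keeps a molecular clock. Fewer cells of a type and less RNA per cell cannot be told apart in such bulk samples.

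Expression is given as FPKM, fragments scaled to transcript length and library size, as the authors deposited it. Values of the late libraries are given in the order Hua, Kai, Pele August, Pele September, and those of July in the order Hua, Kai, Pele. Log2 differences are late minus early, on log2(FPKM + 1) with animal as a block. Adding 1 makes differences of low genes too small. The number of reads obtained from each library was not given in the sources used here. Summed FPKM were 1547805, 1553245, 1362542 and 1279057 in the late libraries and 1282562, 1518224 and 1376989 in July.

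The libraries differed in ways that did not follow the season. The number of genes listed at 0, of 9610, was 788, 33, 669 and 21 in the late libraries and 47, 843 and 736 in July, so that Hua August, Pele August, Kai July and Pele July held many more such entries than the other 3. These entries included genes that every cell uses, and an exact 0 may be a failed estimate. Globin transcripts took 29.2, 32.1, 28.9 and 11.3% of summed FPKM in the late libraries and 14.4, 40.2 and 29.6% in July. Late and early means differed by less than the spread for globin share (25.4 ± 9.49% in late libraries, SD, n = 4, and 28.1 ± 13.0% in July, SD, n = 3; exact permutation within animals, two-sided p = 0.917). Over the 5 library values tested, exact p ran from 0.583 to 0.917, each 0.917 after Benjamini-Hochberg adjustment, and 12 arrangements allow no p below 0.0833. Ribosomal protein transcripts made up 33.2, 30.6, 27.2 and 36.2% of the late libraries and 35.5, 30.1 and 22.7% of July, the value of Pele July being the lowest of all 31 libraries.

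**Figure D1:**
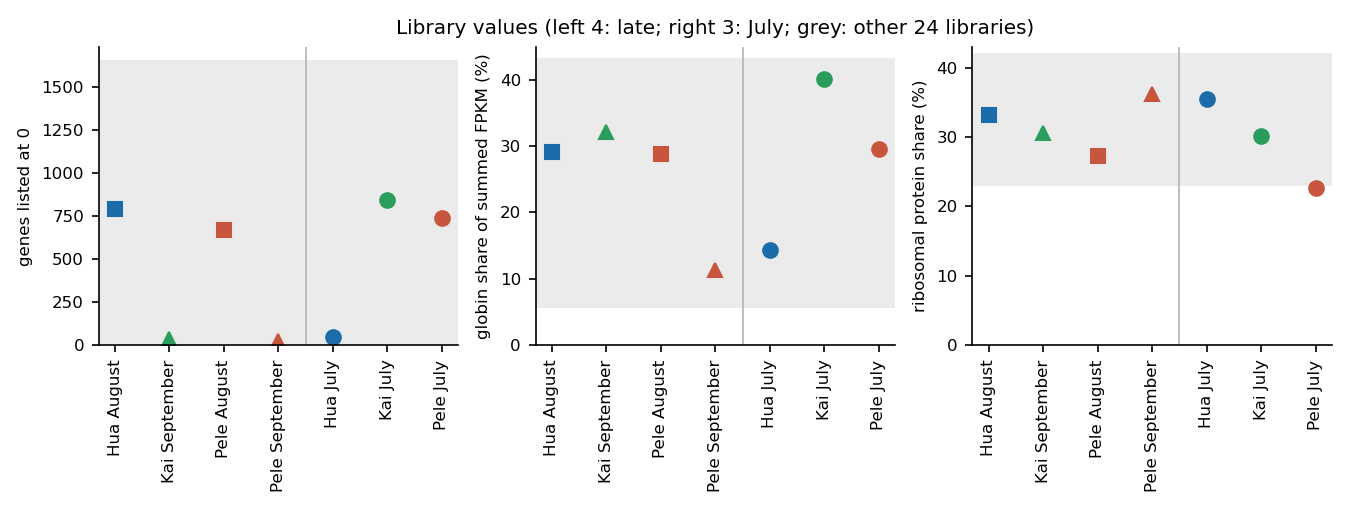
Genes listed at 0, globin share and ribosomal protein share (y axes, number of genes or % of summed FPKM) in the 4 late and 3 July libraries (x axis), with the range of the other 24 libraries in grey. Genes listed at 0 numbered 669 or more in Hua August, Pele August, Kai July and Pele July and 47 or fewer in the other 3.

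Blood markers were present throughout. The summed level of the T cell markers CD3D, CD3E and CD3G was 689, 252, 246 and 335 FPKM in the late libraries and 542, 155 and 254 FPKM in July. Neutrophil markers (S100A8, S100A9, CSF3R and MMP9) summed to 3421, 2076, 3999 and 4086 FPKM in late libraries and 1496 to 5828 FPKM in July. Each marker sum overlapped between the groups. Of the markers of skin, muscle and fat, 0 were among the genes analysed here, and of 4 endothelial markers only PECAM1 was, at 22.8 to 48.3 FPKM in late libraries and 16.1 to 40.8 FPKM in July.

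No gene passed the test between late and early summer. Of 9610 genes, limma called 0 higher and 0 lower at an adjusted p under 0.05 (0 and 0%), and the smallest adjusted p was 0.180. At an unadjusted p under 0.05, 253 genes were higher in late summer (2.63%) and 113 were lower (1.18%). The excess of higher genes turned without Kai (130 higher and 191 lower) and with the August libraries alone (77 and 315), and was small after scaling without globin (222 and 209). It was larger without Hua (474 and 38) and with the September libraries alone (903 and 105), and stayed after median-ratio scaling (381 and 175). Its direction thus depended on the animals and months kept. Each of 4 within-animal differences was higher for 585 genes (6.09%) and lower for 613 genes (6.38%). All 4 late libraries lay above all 3 July libraries for 93 genes (0.968%) and below them for 103 genes (1.07%). Keo August, a late summer library without a July partner, is not part of these counts, and it did not always lie with the late libraries. The result of 0 calls depended on single libraries. Without Pele August there were 9 calls higher and 4 lower, without Pele September 15 and 4, and without Pele July 13 and 0, and in each other omission of 1 library there was none. With Pele July left out, Pele gives no late minus early difference, and the fit rests on Hua and Kai.

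The animals moved in different directions. The median log2 difference over all genes was -0.54 in Hua, 0.48 in Kai, -0.07 in Pele August and 0.27 in Pele September, and 24.2, 74.2, 43.8 and 62.9% of genes were higher late. After scaling of the libraries by their median ratio these medians were -0.03, 0.06, 0.00 and 0.07. Late and early libraries of an animal had correlations near the median of other pairs. Spearman's rho across genes was 0.876 for Hua, 0.849 for Kai, 0.848 for Pele August and 0.859 for Pele September. The other 102 pairs of libraries of 1 animal, Keo included, ran from 0.775 to 0.955 (median 0.853). Kai September was more like Kai December (0.950) and Pele September more like Pele February (0.953), while Hua August was most like Hua July. The closest partners had few genes at 0 (18 in Kai December, 70 in Pele February and 47 in Hua July). Kai July had 843 and Pele July 736, and the part of this in the correlations was not tested. These correlations are across genes within pairs of libraries and carry no test.

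The 10 genes of smallest p among those higher late, with a mean of at least 5 FPKM and the same sign in all 4 within-animal differences, were led by COA5, an assembly factor of cytochrome c oxidase (ENSTTRG00000006032). COA5 had 40.1, 32.4, 29.5 and 49.7 FPKM in late libraries and 15.3, 0 and 0 FPKM in July. The log2 difference was 4.04 (SE 0.67, adjusted p = 0.180), and the groups did not overlap. Keo August, outside the comparison, had 13.2 FPKM, within the July range. MANBAL had 162, 89.6, 59.5 and 57.0 FPKM in late libraries and 65.2, 17.4 and 0 FPKM in July (log2 difference 3.43, SE 0.65, adjusted p = 0.396), with Hua July above both late libraries of Pele. PHF5A, a component of the splicing factor SF3B, had 83.2, 26.3, 11.8 and 26.6 FPKM in late libraries and 56.4, 0 and 0 FPKM in July (log2 difference 3.29, and 1.63 in Cufflinks values). COA5 and MANBAL each passed the threshold under 5 of 24 alternative settings and PHF5A under 2, and under the remaining settings they did not pass. Each lowest adjusted p came without Pele September (1.34e-04, 6.73e-05 and 0.00601 by limma). These genes were chosen for their small p.

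RP9, a splicing-associated protein gene, had 17.6, 4.57, 9.18 and 5.47 FPKM in late libraries and 1.48, 0 and 0 FPKM in July, while the other 15 libraries of these animals ran from 0 to 4.05 FPKM. DPM3 stabilises the enzyme that makes dolichol-phosphate mannose for glycoprotein synthesis. It had 82.1, 57.1, 55.5 and 77.0 FPKM in late libraries (67.9 ± 13.6, SD, n = 4) and 35.9, 17.3 and 6.59 FPKM in July (19.9 ± 14.9, SD, n = 3). It was the only gene of the 10 above 0 in every library, and its groups did not overlap (log2 difference 2.10, SE 0.46, adjusted p = 0.513, and 1.24 in Cufflinks values). Keo August, outside the comparison, had 13.0 FPKM of DPM3, within the July range. SPTSSA, a small subunit of serine palmitoyltransferase, had 36.5, 16.6, 35.8 and 10.3 FPKM in late libraries and 25.2, 0 and 0 FPKM in July. The 4 further genes were C1orf53, FAM136A, LYRM2 and ACYP1, with log2 differences of 2.75, 2.55, 2.67 and 2.64, each listed at 0 in Kai July.

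**Figure D2:**
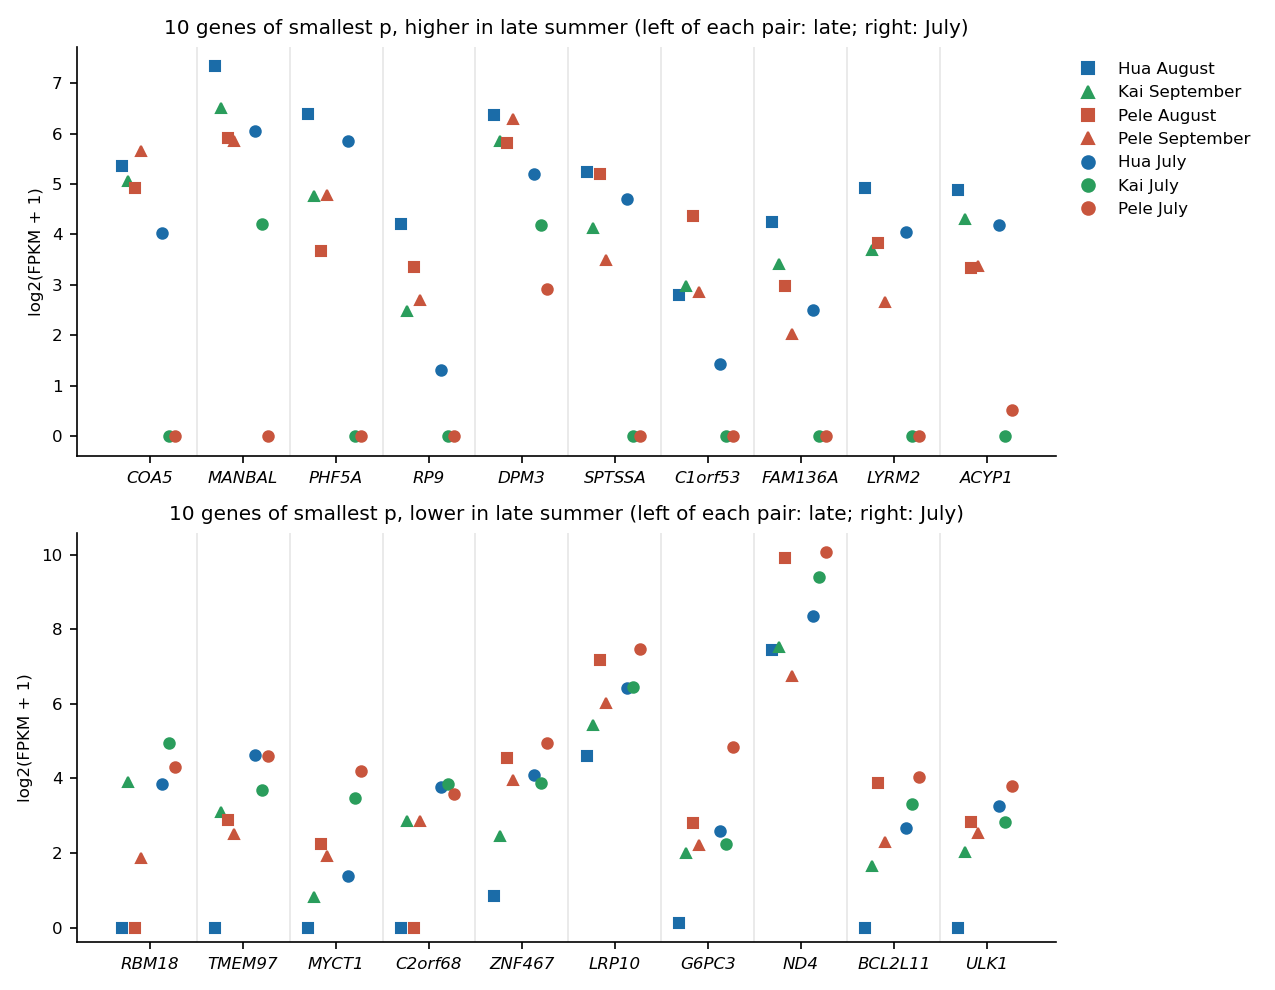
log2(FPKM + 1) (y axis) of the 10 genes of smallest p in each direction (x axis), late libraries left and July libraries right of each pair. Of the 10 genes higher late, 8 were listed at 0 in Kai July and 8 in Pele July, and of the 10 lower late, 6 were listed at 0 in Hua August.

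Libraries with many entries at 0 moved with these results. Of the 253 genes higher late at an unadjusted p under 0.05, 136 (53.8%) were listed at 0 in at least 1 of the 7 libraries, against 1904 of all 9610 genes (19.8%), and of the 113 lower genes 44 (38.9%) were. Among the 7706 genes above 0 in all 7 libraries, 117 (1.52%) were higher and 69 (0.895%) lower at that p. Of the 10 named genes higher late, 9 were at 0 in a July library and 0 in a late library. The part of these entries in the differences was not tested.

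Genes lower late reached smaller differences. RBM18, an RNA-binding protein gene, had 0, 14.0, 0 and 2.66 FPKM in late libraries and 13.3, 29.9 and 18.8 FPKM in July (log2 difference -2.81, SE 0.67, adjusted p = 0.555), and the groups overlapped only through Kai September. In the Cufflinks values of the authors its log2 difference was -0.12. TMEM97, the sigma-2 receptor of the endoplasmic reticulum, had 0, 7.49, 6.38 and 4.73 FPKM in late libraries and 23.9, 11.9 and 23.4 FPKM in July, with no overlap (log2 difference -2.34, SE 0.66). C2orf68 likewise did not overlap, at 0, 6.20, 0 and 6.29 FPKM in late libraries and 12.6, 13.5 and 11.0 FPKM in July. Keo August had 12.7 FPKM of TMEM97, within the July range, and 24.1 FPKM of C2orf68, above it. LRP10, of the lipoprotein receptor family, was above 0 everywhere, at 23.4, 42.5, 143 and 64.0 FPKM in late libraries (68.3 ± 52.6, SD, n = 4) and 85.3, 86.8 and 177 FPKM in July (116 ± 52.8, SD, n = 3). G6PC3, the widely expressed glucose-6-phosphatase that human neutrophils depend on, BCL2L11, which promotes apoptosis, and ULK1, the kinase that starts autophagy, had log2 differences of -1.75, -1.68 and -1.67. MYCT1 and the zinc finger gene ZNF467 had log2 differences of -2.06 and -1.68.

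A second selection, made after the values were seen, took genes above 0 in all 7 libraries with a mean of at least 20 FPKM and the same sign in all 4 within-animal differences. By smallest p the higher genes after DPM3 were COX17, TMEM230, SMIM15, VAMP4, BEX5, RPL37A, RPL37, ASF1A and ATP5J2. COX17, the copper chaperone of cytochrome c oxidase, had 397, 217, 128 and 148 FPKM in late libraries and 269.5, 23.3 and 65.9 FPKM in July, so that Hua July lay within the late range (log2 difference 1.54, SE 0.44, adjusted p = 0.894). BEX5 had 62.1, 163, 71.1 and 81.1 FPKM in late libraries, and its July values ran from 30.5 FPKM in Pele to 61.9 FPKM in Kai. The groups did not overlap here, by a small margin, and did overlap in Cufflinks values. VAMP4, a vesicle fusion protein gene, had 159, 172, 27.9 and 64.1 FPKM in late libraries and 105, 77.2 and 7.12 FPKM in July, and the groups overlapped. ATP5J2, a subunit of ATP synthase, had 402, 303, 102 and 178 FPKM in late libraries and 272, 44.0 and 82.8 FPKM in July.

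The lower genes of the same selection were LRP10, ND4, CDK2AP2, ND1, UCP2, RNASEK, HNRNPA3, ZFP36, COMMD9 and GSTP1, with log2 differences between -1.07 and -1.70. HNRNPA3, an RNA-binding protein gene of the spliceosome, had 5.55, 11.9, 26.4 and 26.5 FPKM in late libraries (17.6 ± 10.6, SD, n = 4) and 33.1, 38.1 and 30.1 FPKM in July (33.8 ± 4.05, SD, n = 3). The groups did not overlap in these values but did in those of Cufflinks, where the log2 difference was -0.67 against -1.27. UCP2, a carrier of the inner mitochondrial membrane, had 56.6, 94.6, 271 and 54.6 FPKM in late libraries and 131, 236 and 272 FPKM in July. In UCP2, as in RNASEK (80.4, 197, 444 and 83.4 FPKM in late libraries and 211, 383 and 455 FPKM in July), Pele August stood with the July libraries.

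Most cytosolic ribosomal protein genes had a positive difference that did not pass the test. Of 70 cytosolic ribosomal protein genes, 68 had a positive log2 difference, against 4950 of all 9610 genes, and the median was 0.33, against 0.02 over all genes. None passed the adjusted threshold with all 7 libraries. At an unadjusted p under 0.05, 7 were higher and 1 lower, against 2.63 and 1.18% of all genes, and 21 (30.0%) were higher in all 4 within-animal differences, against 6.09% of all genes. The median over the list was 0.19 in Hua, 0.43 in Kai, 0.08 in Pele August and 0.53 in Pele September. After median-ratio scaling these medians were 0.77, -0.07, 0.21 and 0.30, so that the direction in Kai changed with the scaling. With the August libraries alone the median was 0.10. Without Pele, limma called RPL37, RPS24, RPL22 and RPL34 higher (adjusted p = 2.96e-06, 7.00e-06, 4.15e-04 and 0.0408), and without Pele July it called RPS24 and RPL22 (0.0286 and 0.0234). Both fits rest on the differences of Hua and Kai alone, with fewer residual degrees of freedom than the fit of all 7 libraries. Their small p-values therefore lean more on the spread drawn from all genes than on that of the gene itself.

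RPL37, a protein of the large subunit and an abundant transcript here, had 48134, 37752, 10448 and 20263 FPKM in late libraries (29149 ± 16962, SD, n = 4) and 26483, 11868 and 9434 FPKM in July (15928 ± 9221, SD, n = 3). The groups overlapped between animals while each animal was higher late (log2 difference 1.01, SE 0.33). RPL37A had 1183, 656, 226 and 361 FPKM in late libraries and 487, 264 and 175 FPKM in July. RPL22 had 3657, 1595, 271 and 704 FPKM in late libraries and 2035, 163 and 469.8 FPKM in July, and was thus lower in Pele August than in Pele July. RPS26, of the small subunit, was the exception in size, at 1674, 1116, 2943 and 496 FPKM in late libraries and 1708, 3603 and 3726 FPKM in July (log2 difference -1.16, SE 0.49). Ribosomal protein genes have many processed copies in mammals, and reads could have been divided among such copies.

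Nuclear genes of the mitochondrion had mostly positive differences. Of 61 nuclear oxidative phosphorylation genes 47 had a positive difference (median 0.29), against 51.5% of all genes. At an unadjusted p under 0.05, 4 were higher and 0 lower, against 2.63 and 1.18% of all genes. Of 72 mitochondrial ribosomal protein genes 56 had a positive difference (median 0.36), with 5 higher and 0 lower at that p. In both lists the medians were positive in Kai (0.91 and 0.85) and Hua (0.30 and 0.17), negative in Pele August (-0.33 and -0.36) and positive in Pele September (0.11 and 0.20, but -0.12 and -0.02 after scaling). Without Kai both medians were 0.01. UQCRB, a subunit of complex III, had 380.4, 371, 38.9 and 89.0 FPKM in late libraries and 194, 26.8 and 58.2 FPKM in July. NDUFA1, of complex I, had 473, 98.9, 32.3 and 121 FPKM in late libraries and 97.7, 0 and 112 FPKM in July, and MRPL33 had 261, 123, 19.4 and 50.4 FPKM in late libraries and 132, 0 and 22.3 FPKM in July. Without Pele July, limma called UQCRB, NDUFA1 and MRPL33 higher (adjusted p = 0.0444, 5.64e-07 and 5.28e-05). That fit rests on the differences of Hua and Kai alone, with fewer residual degrees of freedom than the fit of all 7 libraries. NDUFA1 and MRPL33 differed by 6.64 and 6.95 on the log2 scale in Kai, whose July value was 0, and by 2.26 and 0.98 in Hua. For NDUFB11 (log2 difference -0.75) and MRPL53 (-1.01) the sign was opposite.

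Of the 10 mitochondrially encoded genes, a list added after ND1 and ND4 were seen among the lower genes, 8 had a negative difference, with a median of -1.14 against 0.02 over all genes. At an unadjusted p under 0.05, 4 were lower (ND1, ND4, ND4L and CYTB) and 0 higher. Since ND1 and ND4 prompted the list, these counts describe it and nothing is read from them against the 1.18% of all genes lower at that p. ND4, a subunit of complex I, had 172, 184, 972 and 106 FPKM in late libraries and 325, 676 and 1082 FPKM in July (log2 difference -1.54, SE 0.55). ND1 had 89.2, 61.4, 502 and 36.5 FPKM in late libraries and 118, 312 and 633 FPKM in July. Pele August was thus as high as the July libraries in both genes, and Pele September the lowest of the 7. Without Pele August, ND4 and ND1 passed the threshold (adjusted p = 0.0226 and 0.0423 by limma). ATP8, of ATP synthase, had 464, 424, 1213 and 86.1 FPKM in late libraries and 594, 1063 and 1312 FPKM in July. ATP6, the most abundant member, had a smaller log2 difference of -0.55 (SE 0.32). In Cufflinks values ND4 was far lower, at 1.05 to 43.0 FPKM over the 7 libraries, with a log2 difference of -1.83. ATP8, ATP6, ND4L, ND5 and ND6 had no Cufflinks value. CYTB, of complex III, had 61.8, 243, 275 and 47.9 FPKM in late libraries and 59.7, 776 and 335 FPKM in July. ND3 and ND6 had log2 differences of 0.00 and 0.03, with signs that turned under several settings. The list median was -0.21 in Hua, -1.62 in Kai, -0.31 in Pele August and -2.84 in Pele September, and 0.37, -2.12, -0.18 and -3.06 after scaling, so that its sign in Hua depended on the scaling. With the August libraries alone the median was -0.27, and with the September libraries alone -2.31. In Kai and Pele September, where the difference was largest, the July library was one with many entries at 0 and the late library was not, and the part of this was not tested.

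**Figure D3:**
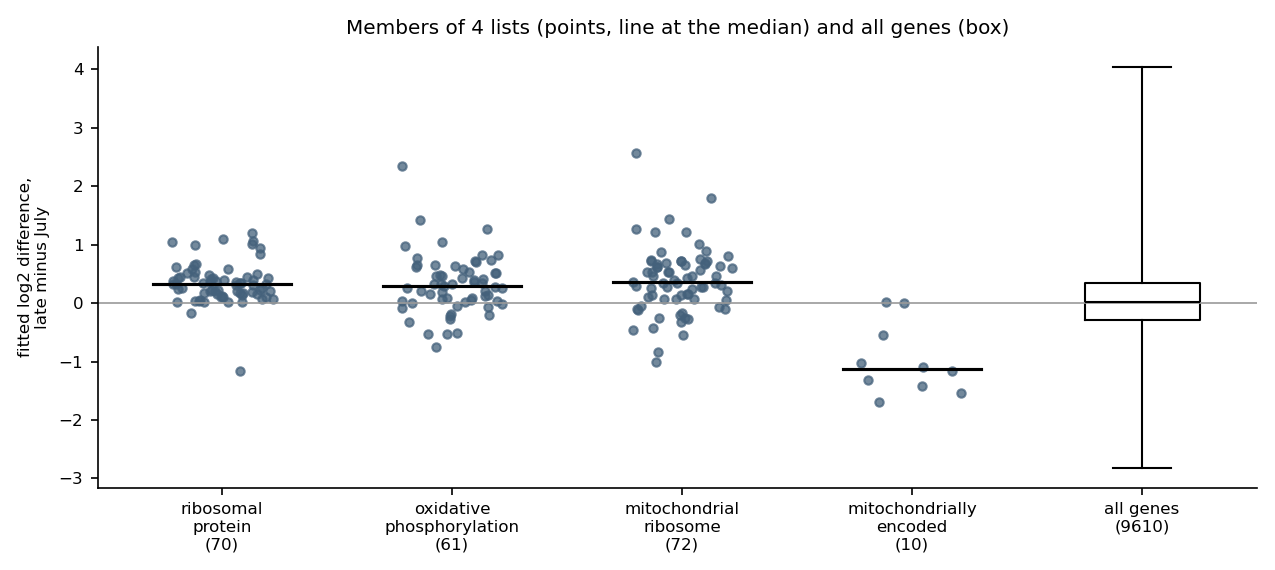
Fitted log2 difference, late minus July (y axis), of each member of 4 gene lists (x axis, number of genes in brackets, line at the median) and of all genes (box over the central quartiles, whiskers from the lowest to the highest gene). Medians were 0.33 for ribosomal protein genes, 0.29 for nuclear oxidative phosphorylation genes, 0.36 for mitochondrial ribosomal protein genes and -1.14 for mitochondrially encoded genes.

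Interferon-inducible genes were at their highest in Pele July and Pele August, 1 library of each group. The 48 measured members had a median difference of -0.26. At an unadjusted p under 0.05, 1 was higher and 0 lower, against 2.63 and 1.18% of all genes. In all 4 within-animal differences 0 were lower, against 6.38% of all genes. Summed over the list, the level was 1370.2, 1426, 8510.1 and 2867 FPKM in late libraries and 2004, 1111 and 6772 FPKM in July, so that Pele July and Pele August both lay above the other 24 libraries (1094 to 3296 FPKM). In Pele August 37 of the 48 genes exceeded each of those 24 libraries (77.1%, against 5.25% of all genes), and in Pele July 29 did (60.4%, against 7.64% of all genes). In Pele, 42 were higher in both July and August than in September (87.5%, against 19.9% of all genes), and 40 were higher in August than in July (83.3%, against 43.8%). In Hua 9 of 48 were higher in August than in July (18.8%, against 24.2% of all genes), and in Kai 36 of 48 in September than in July (against 74.2%), both near the share over all genes.

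IRF1, an interferon-induced transcription factor, had 111, 141, 759 and 306 FPKM in late libraries and 155, 101 and 594 FPKM in July. UBE2L6, which conjugates ISG15 to proteins, had 53.7, 27.2, 539.8 and 106 FPKM in late libraries and 46.2, 35.8 and 561 FPKM in July. In both genes Pele August and Pele July were the highest of the 7 libraries, with Pele September next. PSMB8 and PSMB9 of the immunoproteasome and SHISA5 had log2 differences of 0.23, -0.13 and -0.51. IFIT1, which binds viral RNA, ranged more widely, at 10.6, 19.8, 575 and 56.8 FPKM in late libraries and 40.7, 20.9 and 359 FPKM in July. IFI6 did not follow this pattern, with 51.9, 42.8, 55.3 and 55.4 FPKM in late libraries and 42.8, 18.5 and 0 FPKM in July (log2 difference 2.76, SE 0.76, adjusted p = 0.894).

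**Figure D4:**
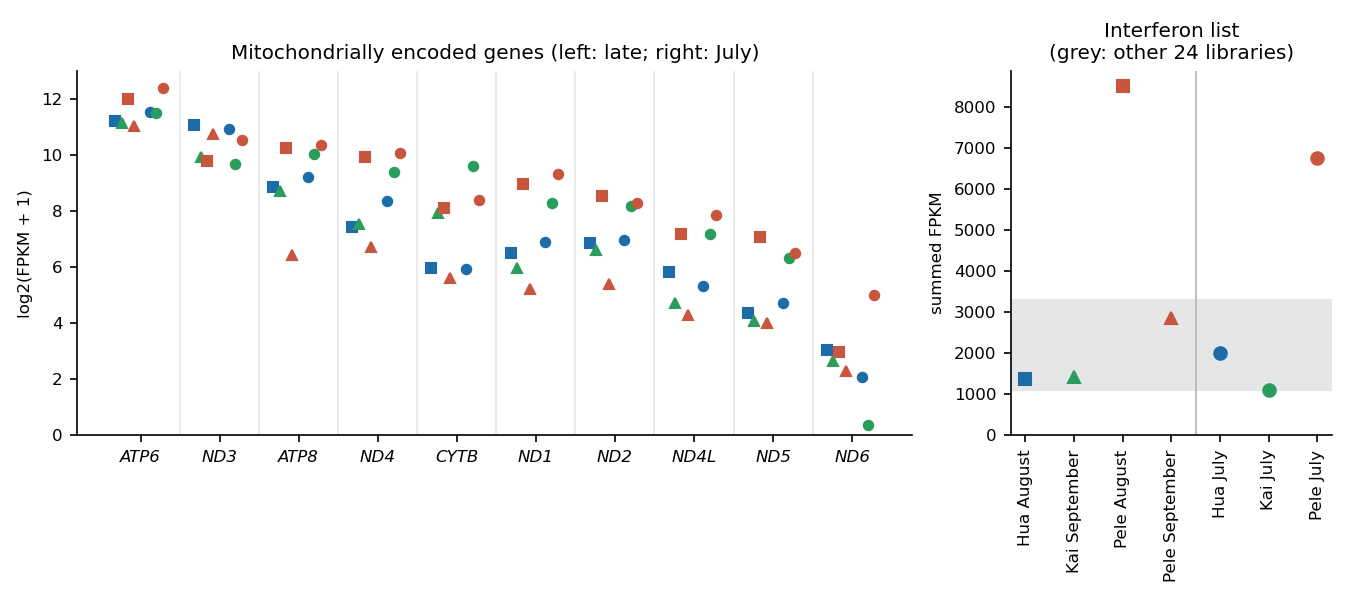
Left, log2(FPKM + 1) (y axis) of the 10 mitochondrially encoded genes (x axis), late libraries left and July libraries right of each pair, squares for August, triangles for September and circles for July, with Hua in blue, Kai in green and Pele in red. Right, summed FPKM of 48 interferon response genes (y axis) by library (x axis), with the range of the other 24 libraries in grey. Pele August (8510.1 FPKM) and Pele July (6772 FPKM) lay above that range.

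Genes of blood cell types gave no common direction. Among globin genes, HBQ1 was the most positive, at 394, 408, 583 and 536 FPKM in late libraries (480.4 ± 93.9, SD, n = 4) and 307, 363 and 306 FPKM in July (325 ± 32.6, SD, n = 3), without overlap but with an adjusted p of 1.000. Keo August had 432 FPKM of HBQ1, within the late range. HBA had 8758, 8430.4, 16449.7 and 8933 FPKM in late libraries and 6994, 26026 and 18719 FPKM in July. HBB had 203124, 225123, 173002 and 61528 FPKM in late libraries and 81865, 276766 and 185519.9 FPKM in July (log2 difference -0.03, SE 0.43), and ENSTTRG00000009506, a relative of HBB without a symbol, had a log2 difference of 0.05. The embryonic-type HBE1 and HBZ and the alpha-like HBM had log2 differences of 0.22, -0.05 and -0.14. HBA, HBB and HBM were the depletion targets, so their levels also depend on how completely each sample was depleted, and HBB and this relative may share reads.

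Of 40 red cell genes, 23 had a positive difference (median 0.09), near the 51.5% of all genes that did. At an unadjusted p under 0.05, 4 were higher and 0 lower, against 2.63 and 1.18% of all genes. CA2, a red cell carbonic anhydrase, had 13.1, 30.6, 3.61 and 13.7 FPKM in late libraries and 8.42, 6.19 and 0 FPKM in July. BNIP3L, which clears mitochondria from maturing red cells, had 2434, 3506, 974 and 1094 FPKM in late libraries (2002 ± 1202, SD, n = 4) and 2020.1, 1216 and 632 FPKM in July (1289 ± 697, SD, n = 3). It was higher late in each animal (log2 difference 0.82, SE 0.32, unadjusted p = 0.0198, adjusted p = 1.000 by limma). CPOX, an enzyme of haem synthesis, overlapped in Cufflinks values but not in these, at 1.41, 5.62, 4.71 and 6.77 FPKM in late libraries and 9.61, 12.3 and 8.94 FPKM in July.

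Of 20 neutrophil genes, 15 had a negative difference (median -0.16), against 48.5% of all genes. In all 4 within-animal differences 4 of the 20 were lower, against 6.38% of all genes. Without Hua the median was 0.10. ALPL, the alkaline phosphatase of mature neutrophils, had 67.6, 109, 189.5 and 126 FPKM in late libraries (123 ± 50.7, SD, n = 4) and 198, 149 and 256 FPKM in July (201 ± 53.8, SD, n = 3), with a log2 difference of -0.88 (SE 0.36). CTSG, a granule protease of immature neutrophils, was higher in every late library, at 9.19, 7.61, 6.47 and 13.0 FPKM, than in July, at 2.61, 2.01 and 5.59 FPKM. CD68, of monocyte lysosomes, had 80.9, 161, 449 and 170.4 FPKM in late libraries and 182, 194 and 599 FPKM in July, and was lower late in each animal. KLF4, a transcription factor of monocyte differentiation, was higher late in each animal, at 4.56, 7.91, 4.33 and 6.22 FPKM in late libraries and 4.03, 5.18 and 2.86 FPKM in July (log2 difference 0.48, SE 0.56). For the monocyte list of 17 genes the median was -0.07.

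Lymphocyte lists had medians near 0: 0.14 for 19 B cell genes, 0.09 for 30 T cell genes and 0.08 for 17 cytotoxic and NK cell genes. TNFRSF13C, the BAFF receptor of B cells, had 60.4, 11.5, 18.6 and 25.1 FPKM in late libraries and 36.6, 0.530 and 10.4 FPKM in July. Other B cell genes went the other way. CD22, an inhibitory receptor of B cells, had 4.23, 2.99, 4.56 and 4.49 FPKM in late libraries and 7.32, 4.92 and 9.66 FPKM in July (log2 difference -0.75, SE 0.55). Its groups did not overlap in these values but did in those of Cufflinks, where the log2 difference was -0.28. The tetraspanin CD37 was lower late in each animal (-0.56, SE 0.33). CD4, the co-receptor of helper T cells, had 4.55, 8.04, 11.0 and 7.86 FPKM in late libraries (7.87 ± 2.64, SD, n = 4) and 14.5, 14.2 and 16.1 FPKM in July (14.9 ± 1.01, SD, n = 3), and TCF7, a T cell transcription factor, had 8.49, 6.81, 8.12 and 4.00 FPKM in late libraries and 21.9, 16.6 and 11.0 FPKM in July. Neither gene overlapped between the groups, and their unadjusted p were 0.0775 and 0.0561 by limma. They were the 2 of 30 T cell genes with all late libraries below July, against 1.07% of all genes. Keo August had 12.3 FPKM of CD4, between the groups, and 24.5 FPKM of TCF7, above each July library. CD3G, of the T cell receptor complex, went the other way, at 387, 132, 93.6 and 125 FPKM in late libraries and 285, 58.0 and 93.5 FPKM in July. Of 16 platelet genes 12 had a negative difference (median -0.25), against 48.5% of all genes. The largest was that of TREML1, at 1.18, 3.98, 13.1 and 29.1 FPKM in late libraries and 7.79, 33.4 and 27.9 FPKM in July.

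Most inflammatory and immediate early genes had a negative fitted difference, with list medians that varied between the animals, and 0 passed the test. Of 34 inflammation genes 25 had a negative difference (median -0.29), against 48.5% of all genes, and 5 (14.7%) were lower in all 4 within-animal differences, against 6.38% of all genes. The list median was -0.81 in Hua, 0.15 in Kai, -0.15 in Pele August and -0.33 in Pele September. After median-ratio scaling these medians were -0.31, -0.22, -0.03 and -0.54. Without Hua the fitted median was 0.01. IL1B, a cytokine of activated myeloid cells, had 163, 169, 246 and 130.5 FPKM in late libraries (177 ± 48.8, SD, n = 4) and 212, 289 and 421 FPKM in July (308 ± 106, SD, n = 3). It was lower late in each animal, and the groups overlapped only through Pele August (log2 difference -0.84, SE 0.36, unadjusted p = 0.0331, adjusted p = 1.000 by limma). Of 27 immediate early genes 18 had a negative difference (median -0.16) and 5 (18.5%) were lower in all 4 differences. Their median was -0.43 in Hua, against -0.54 over all genes there, 0.26 in Kai, -0.13 in Pele August and 0.10 in Pele September. After scaling these medians were 0.00, -0.24, 0.00 and -0.12. Without Hua the fitted median of the immediate early list was 0.10. ZFP36, which destabilises cytokine mRNA, had 9.22, 16.4, 75.8 and 6.77 FPKM in late libraries and 15.8, 60.8 and 107 FPKM in July, and its relative ZFP36L1 had 2.81, 6.10, 22.4 and 3.46 FPKM in late libraries and 11.8, 33.0 and 17.6 FPKM in July. DUSP1, a phosphatase induced by stress and glucocorticoids, had a log2 difference of -0.89 (SE 0.45), while the median of 17 glucocorticoid response genes was -0.01.

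Of 15 circadian clock genes, 12 had a negative difference and 3 a positive one, with a median of -0.47. Over all genes 48.5% had a negative difference. At an unadjusted p under 0.05, 0 clock genes were higher or lower, against 2.63 and 1.18% of all genes. The list median was -0.57 in Hua, -0.25 in Kai, -0.37 in Pele August and -0.03 in Pele September, and 3 of the 15 were lower in all 4 differences, against 6.38% of all genes. After scaling the list medians were -0.01, -0.73, -0.25 and -0.20, and the median over all genes in Hua was -0.54 before scaling. Without Hua the median was -0.20, and with the September libraries alone it was 0.08. ARNTL, which encodes the clock activator BMAL1, had 3.47, 8.25, 9.72 and 15.8 FPKM in late libraries and 13.1, 9.04 and 12.8 FPKM in July, Pele September being the highest of the 7. CSNK1E, a kinase that marks PER proteins for degradation, had 29.6, 41.4, 56.2 and 53.6 FPKM in late libraries (45.2 ± 12.2, SD, n = 4) and 70.6, 53.1 and 58.0 FPKM in July (60.6 ± 9.02, SD, n = 3). Its relative CSNK1D had 22.3, 24.6, 29.7 and 31.2 FPKM in late libraries and 33.6, 29.3 and 37.7 FPKM in July, and was lower late in each animal by a log2 difference of -0.36 (SE 0.42). DBP, an output gene of the clock, had 5.94, 3.91, 1.89 and 7.84 FPKM in late libraries and 9.35, 5.40 and 6.90 FPKM in July. The repressor CRY2 and the related CRY1 had log2 differences of -0.18 and -0.50, the transcription factors BHLHE40, TEF and NFIL3 -0.47, -0.71 and -0.05, NR1D1 and ARNTL2 -0.59 and -0.60, and TIMELESS -0.23. The nuclear receptors RORA and NR1D2 were among the positive members, at 0.76 and 0.88. Each SE of these genes was at least 0.40, and all draws were made in the morning.

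Other groups held single genes at low unadjusted p in both directions. Of 38 antioxidant genes 23 had a positive difference (median 0.20), against 51.5% of all genes, and 4 were higher and 2 lower at an unadjusted p under 0.05, against 2.63 and 1.18% of all genes. MGST1, a membrane glutathione transferase, had 14.9, 18.8, 14.6 and 14.5 FPKM in late libraries and 11.8, 2.97 and 0 FPKM in July, while GSTP1, the cytosolic one, had 51.4, 60.5, 246 and 78.6 FPKM in late libraries and 70.5, 172 and 324 FPKM in July. STMN1, a microtubule regulator of dividing cells, had 40.5, 37.0, 66.7 and 73.5 FPKM in late libraries and 40.9, 12.4 and 20.9 FPKM in July, though the median of 32 cell cycle genes was 0.02. HLA-DOA and CD74, of the MHC class II pathway, had log2 differences of -1.68 and -0.71 in a list of 12 with a median of -0.16. Of the chaperones, DNAJB11 of the endoplasmic reticulum had 0.93 and DNAJB2 -0.82 on the log2 scale in a list of 41 with a median of 0.06. The lists of proteasome (43 genes), translation factor (55), hypoxia response (27), glycolysis (23), MHC class I loading (14) and eosinophil and basophil genes (7) had medians of 0.14, 0.05, -0.05, -0.09, -0.13 and -0.23.

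**Figure D5:**
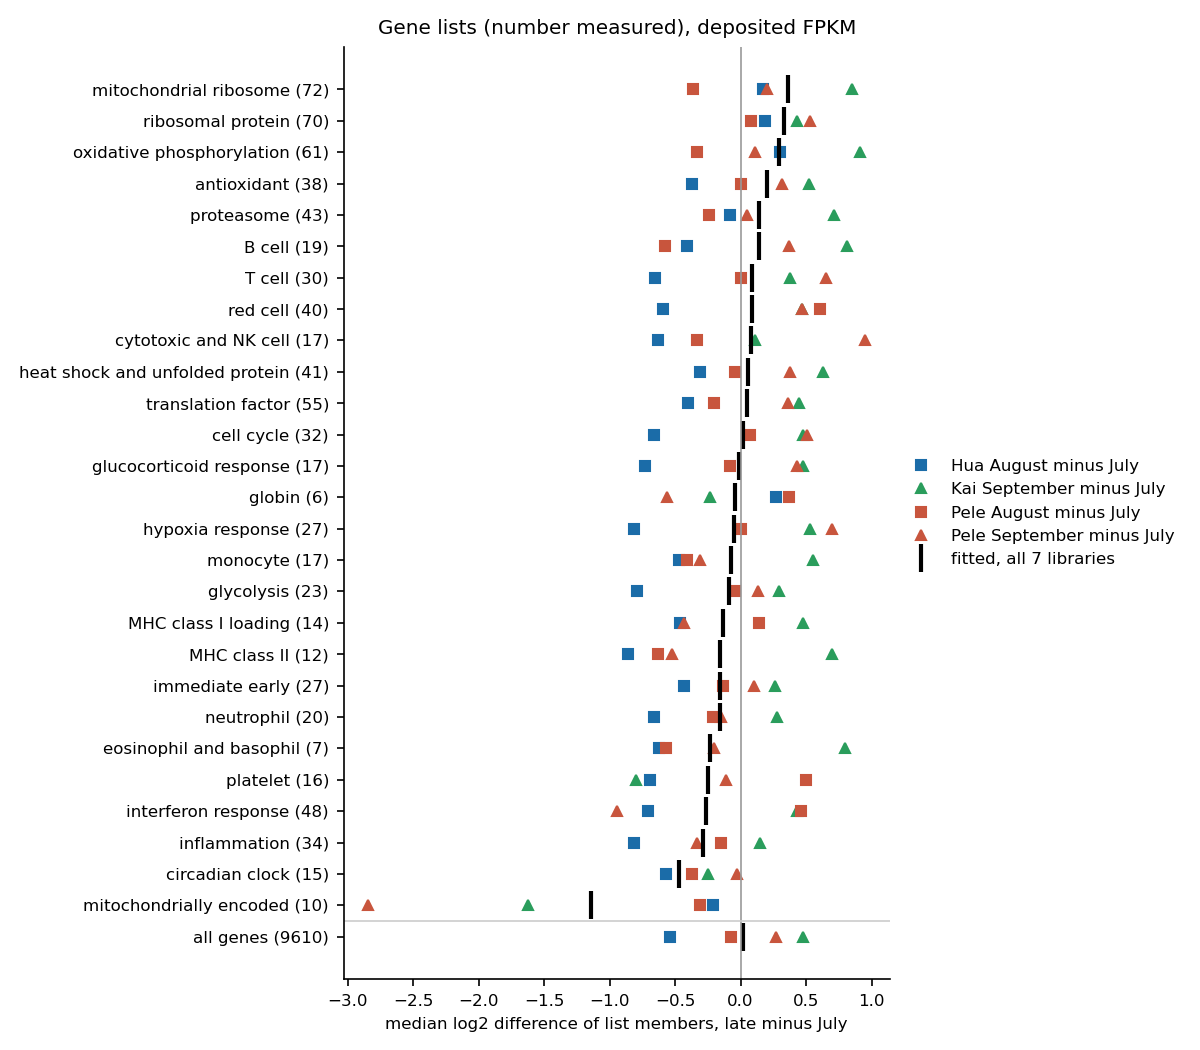
Median log2 difference of the members of 27 gene lists and of all genes (y axis, number measured in brackets), late minus July on deposited FPKM (x axis), for each within-animal difference (coloured symbols) and for the fit over all 7 libraries (black ticks). Hua lay at -0.54 and Kai at 0.48 over all genes, and except for globin, platelet and mitochondrially encoded genes the list medians of Hua lay below those of Kai.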

How the data were processed

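Blood RNA-seq libraries of 3 dolphins were compared, 4 from late summer and 3 from July. The authors deposited FPKM. Their reads were trimmed with Trimmomatic and aligned to the turTru1 assembly, using Bowtie2 2.2.4 ahead of RSEM 1.2.18, while TopHat2 2.3.13 and Cufflinks 2.2.0 gave a second table, used as an alternative. The RSEM table held 9610 genes (8865 with a symbol), those with a mean of at least 1 FPKM over the series. No source used here states a scaling between libraries, and FPKM without read numbers allow no counting interval.

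limma 3.58.1 (R 4.3.3) was fitted to log2(FPKM + 1), with animal as a block, a mean-variance trend and 3 residual degrees of freedom. Tests were two-sided, and p-values were adjusted over all 9610 genes by Benjamini-Hochberg, with a threshold of 0.05. Libraries are paired by the animal named in the labels, and the consensus correlation of libraries of 1 animal was 0.115. The p-values measure the spread between these libraries, moderated with 12.8 prior degrees of freedom. This draws the spread of each gene toward the trend over all genes. Fits with a library or animal left out had fewer than 3 residual degrees of freedom, so their p-values lean more on that trend. Scripts were tested on simulated data.

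Named genes were, first, 10 in each direction by smallest p with a symbol, a mean of at least 5 FPKM and 1 sign in all 4 within-animal differences. Globin genes, clock genes and interferon genes of highest mean follow, of which some items are not reported here. In each list the 2 most positive and 2 most negative members with a mean of at least 5 FPKM were to be named, of which those of the lists described are printed in part. CD4, TCF7, CPOX, CYTB, RPL34, ZFP36L1, IFIT1 and CD3G, among other members, were chosen after their values were seen. Members and gene lists were chosen with earlier results of these data known. In all, 24 alternative settings were run. Columns of the authors' own comparisons, which hold fold changes and probabilities, and the table of the de novo assembly were not used.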

Additional observations from a re-analysis of the deposited data

Results flagged for a closer look

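Among the 4 late libraries, single libraries stood far from the other 3 in 18 of 117 genes examined. Chance places about 1 in 20 groups so, but many of these genes were named for their values and all share the same libraries, so that nothing is read from the number. In 15 of these it was Pele August that was highest: C1orf53 (19.6 FPKM), ND4 (972), ND1 (502), ND5 (133), ATP6 (4140.2), HBA (16449.7), UBE2L6 (539.8), RTP4 (71.5), IFIT1 (575), ISG15 (383), ZFP36 (75.8), ZFP36L1 (22.4), CD74 (2249), GPX3 (22.0) and GSTP1 (246). Kai September was highest for TSPO2 (17.4 FPKM) and MGST1 (18.8), and Hua August for CD3G (387). The globin share of Pele September, 11.3%, lay far below the other late libraries.

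A term for the female against the males passed the threshold for IFI6 (female minus male change 5.10 on the log2 scale, adjusted p = 0.0131 by limma) and NDUFA1 (-5.27, adjusted p = 0.00279). The value of IFI6 rests on an entry at 0 in Pele July and that of NDUFA1 on one at 0 in Kai July, so that no difference between the sexes is read from them. This fit was added after seeing the data, and of the 17 genes past its threshold, 16 were listed at 0 in at least 1 library. With 1 female and 2 males, sex and animal cannot be told apart.

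After scaling, the list medians of the female and of both males had opposite signs for 5 of 27 lists, a difference that was not tested. The medians were 0.74 and 0.25 in Pele August and September, against -0.02 in Hua and -0.01 in Kai, for red cell genes (mean difference 0.51). They were 0.09 and 0.43 in Pele, against -0.08 and -0.09 in the males, for T cell genes (0.34), and -0.11 and -0.16 in Pele, against 0.50 and 0.22, for the proteasome (-0.50). For oxidative phosphorylation they were -0.20 and -0.12 in Pele, against 0.84 and 0.42 in the males (-0.79), and for the mitochondrial ribosome -0.23 and -0.02, against 0.75 and 0.38 (-0.69).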

How the results depend on the processing

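Calls appeared under 8 of 24 settings and took in 46 genes, 27 of them listed at 0 in some of the 7 libraries. The cause was not tested. Higher calls, 0 as reported, were 2 with a pseudocount of 5, 1 with a mean of at least 20 FPKM (a filter chosen after seeing the data), 3 in Cufflinks values, and 0 to 19 with a library or animal left out. Lower calls, 0 as reported, were 1 with August only and 0 to 4 with a library or animal left out. Omitting the replicate block left 0 calls, with 119 genes higher and 46 lower at an unadjusted p under 0.05, against 253 and 113 with it. At that p the counts were 154 higher and 67 lower with animal as a random block, 381 and 175 after median-ratio scaling, 222 and 209 after scaling without globin, 80 and 49 with a mean of at least 20 FPKM, 77 and 315 with August only. They were 903 higher with September only, 145 higher in the fit of all 31 libraries, 72 lower with a mean of at least 5 FPKM, 52 lower with Keo August added and 50 lower in Cufflinks values. With a library or animal left out they ran from 125 to 483 higher and from 37 to 195 lower.

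Of 2747 values of named genes under the alternatives, 2645 kept their sign and 34 passed the threshold, and 14 of 672 list medians moved by more than the spread. Signs turned mostly for differences near 0. With August only, log2 differences became 0.34 for HBZ, 0.31 for HBM, 0.07 for HBA, 0.61 for HBB, 0.20 for CRY2, -0.09 for NR1D2, 0.08 for UBE2L6, -0.04 for RPS24, -0.15 for RPL34, 0.07 for ND2, 0.11 for ND5, -0.31 for ND3 and -0.53 for ND6. With September only they became 0.13 for BHLHE40, 0.33 for TEF, 0.20 for CRY1, 0.08 for ARNTL, 0.29 for NFIL3, -0.84 for ENSTTRG00000009506 and -0.21 for ND6. With no replicate block they were 0.08 for TIMELESS, 0.10 for NFIL3, 0.23 for IRF1, 0.17 for PSMB9, -0.04 for ENSTTRG00000009506 and -0.00 for ND3. With animal as a random block they were 0.00 for TIMELESS, 0.06 for NFIL3, 0.14 for IRF1, 0.10 for PSMB9, -0.02 for ENSTTRG00000009506 and -0.00 for ND3. In the fit of all 31 libraries they were 0.03 for HBB, 0.04 for IRF1, 0.03 for PSMB9 and -0.01 for ND3, and with Keo August 0.07 for NFIL3, 0.12 for IRF1 and -0.09 for ENSTTRG00000009506. Scaling without globin gave -0.06 for ENSTTRG00000009506, -0.10 for ND3 and -0.04 for ND6, a pseudocount of 5 gave -0.27 for ND6, and Cufflinks values gave 0.08 for TIMELESS. With a library or animal left out, signs turned for these genes, whose values ran from -0.31 to 0.17 for HBZ, -0.38 to 0.15 for HBM, -0.61 to 0.51 for HBB, -0.39 to 0.01 for CRY2, -2.67 to 0.33 for TEF, -0.38 to 0.02 for TIMELESS, -0.39 to 0.14 for NFIL3, -0.37 to 0.12 for IRF1, -0.12 to 0.51 for PSMB8, -0.38 to 0.09 for PSMB9, -0.51 to 0.57 for ENSTTRG00000009506, -2.36 to 0.04 for RTP4, -0.13 to 0.20 for ND3 and -0.94 to 1.63 for ND6.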
